A study of Homo sapiens with 4 samples.

Results

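The death receptor genes described here encode the receptors for the ligands TRAIL and FAS ligand, together with the proteins that assemble on those receptors or act directly after them. They were chosen by name, as the rows of the 4 files that carry the symbols TNFRSF10A, TNFRSF10B, TNFRSF10D, FAS, FADD, CASP8, CASP10, CFLAR, RIPK1 and BID. All 10 were found among the 20003 genes of the files. The cells were HCT116, a human colorectal cancer line of epithelial origin. The control group, shPLKO, held 2 libraries labelled wild type, and the other group, shNUDT21, held 2 libraries labelled NUDT21 knockdown. None of the 4 cultures was labelled as treated, and all carried the time value 1, with no unit. NUDT21, also called CFIm25, belongs to cleavage factor Im, which helps choose where an mRNA is cut and polyadenylated. The series description calls the control hairpin shScramble, and the labels do not say whether the library names shNUDT21 1 and shNUDT21 5 refer to different hairpins, clones or cultures. The p-values therefore reflect only how far these 4 libraries differ, and that spread may be technical. In bulk RNA, fewer expressing cells and less RNA per cell cannot be told apart.

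TRAIL binds the receptors DR4 and DR5, encoded by TNFRSF10A and TNFRSF10B, and FAS ligand binds FAS. The death domains inside the cell recruit the adaptor FADD, which gathers the initiator caspases encoded by CASP8 and CASP10 into a signalling complex where they are activated. CFLAR encodes FLIP, a relative of caspase-8 without protease activity that competes for places in the complex. Active caspase-8 cleaves executioner caspases directly, and it cleaves the BCL2 family protein BID, whose fragment opens the mitochondrial arm of cell death. RIPK1 is a kinase of the same complexes that can steer signalling to survival, apoptosis or necroptosis. TNFRSF10D is a receptor for TRAIL with a truncated death domain and is counted among the decoys.

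The values are RPKM, a read count corrected for the length of the gene model and the size of the library. Depth recovered from the values was between 29963980 and 30459886 reads per library. NUDT21 stood at 24.3 and 26.9 RPKM in shPLKO 1 and 2 and at 3.96 and 2.999 RPKM in shNUDT21 1 and 5, so the targeted gene followed the labels. Of 10 markers of colorectal epithelium, 7 had a mean of at least 1 RPKM, with VIL1, CDX1 and LGALS4 close to 0. None of the 6 blood markers and none of the 3 endothelial markers reached 1 RPKM, and of 5 fibroblast markers COL1A1 did, at 4.38 to 6.97 RPKM. The summed level of the epithelial markers was 9221 to 9873 RPKM in the controls and 3428 to 4154 RPKM in the knockdown libraries, a difference carried by KRT8, KRT18 and KRT19. EPCAM (129.8 and 131.6 RPKM, then 162.2 and 179.9 RPKM), CDH1 and CDX2 had both knockdown values above both controls. The part of that difference in the results below was not tested.

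Of the 10 genes, TNFRSF10A and CASP8 rose in the knockdown libraries, by 1.95-fold and 1.79-fold. Differences were tested with limma on log2(RPKM + 1), over the 11124 genes whose mean reached 1 RPKM, and called at a Benjamini-Hochberg adjusted p under 0.05. Among all genes tested, 5.82% were called, 2.61% as higher and 3.21% as lower. Of the 10 genes, 9 reached the level filter, and 2 of these were called higher and 0 lower (limma; 2 and 0 with voom). At an unadjusted p under 0.05, 5 of the 9 were higher and 2 lower, against 1851 and 1922 of the 11124 genes. FAS was under the filter. Both knockdown values lay above both control values for 5 of the 9 and below them for 3, against 32.8% and 33.4% of all genes tested. Only BID had overlapping groups among the 9. The median log2 fold change of the 9 was 0.38, against -0.003 for all genes tested. Both calls lay close to the threshold. In the same fit NUDT21 itself, with a log2 fold change of -2.58, had a limma adjusted p of 0.0406.

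**Figure D1:**
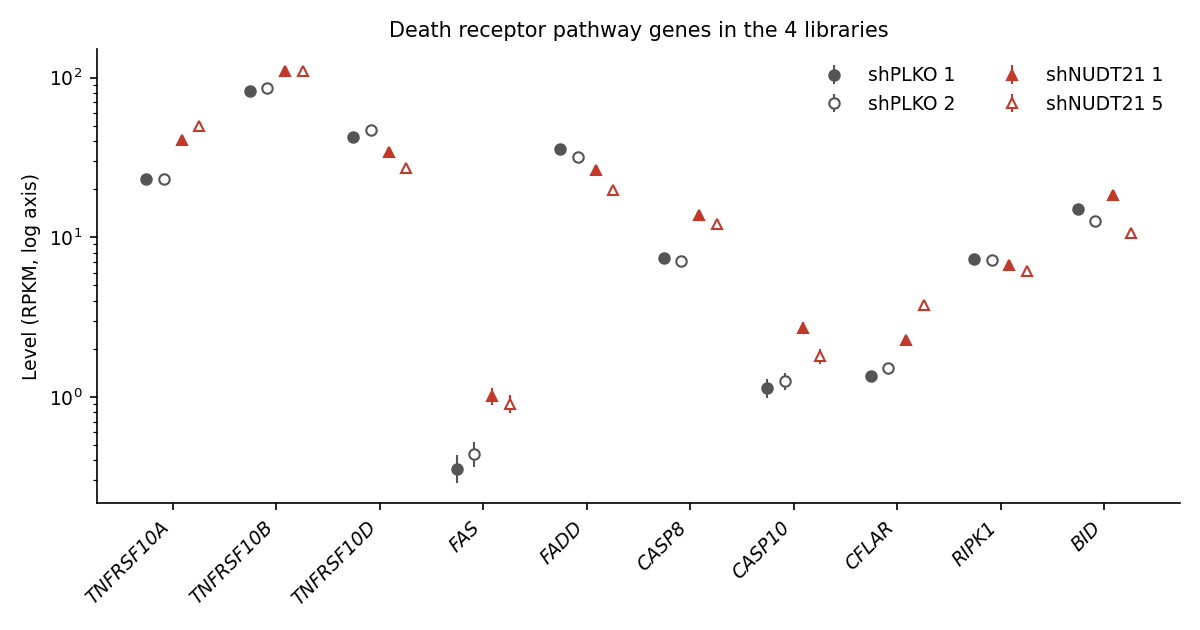
Level of each of the 10 genes in RPKM (log axis) in each library, with circles for shPLKO and triangles for shNUDT21. Vertical bars are 95% counting intervals from the recovered reads, and most are smaller than the symbols. TNFRSF10A, TNFRSF10B, FAS, CASP8, CASP10 and CFLAR have both triangles above both circles, TNFRSF10D, FADD and RIPK1 have both below, and BID has a triangle on each side.

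Of the receptors for TRAIL, only TNFRSF10A passed the test. TNFRSF10A, which encodes the death receptor DR4, was at 23.2 and 23.1 RPKM in shPLKO 1 and 2 against 40.8 and 49.5 RPKM in shNUDT21 1 and 5, or 23.1 ± 0.0638 and 45.1 ± 6.22 RPKM (mean ± SD, n = 2 each). The controls were nearly equal, and both knockdown libraries were well above them. On the log2 scale the difference was 0.93, with an SE of 0.15 (limma adjusted p 0.0457). These values rest on 1236, 1225, 2157 and 2598 reads. TNFRSF10A exons share 9.01% of their bases with the annotated gene AC100861.1 and 7.59% with TNFRSF10A-AS1, both on the opposite strand. The part of these genes in the TNFRSF10A values was not tested. TNFRSF10B, which encodes DR5, had 82.8 and 85.4 RPKM in shPLKO 1 and 2, and shNUDT21 1 and 5 had 109.9 and 109.4 RPKM. The knockdown libraries were both about 1.30 times the control mean, with little spread in either group. The log2 fold change of 0.38 (SE 0.12) did not pass the test over all genes (limma adjusted p 0.113), and its 95% interval ran from 0.05 to 0.70.

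TNFRSF10D, the decoy, was at 42.7 and 46.7 RPKM in shPLKO 1 and 2, against 34.2 and 27.1 RPKM in shNUDT21 1 and 5. Both knockdown values lay below both controls, at 0.764 and 0.607 times the mean of the controls. Its log2 fold change of -0.54 (SE 0.16), with a 95% interval from -0.97 to -0.11, did not pass (limma adjusted p 0.10). The remaining TRAIL receptor of this cluster, TNFRSF10C, which lacks the intracellular part altogether, was not among the 10 genes. Levels of 8.17 and 7.53 RPKM were found in shPLKO 1 and 2, with shNUDT21 1 above both at 9.72 RPKM and shNUDT21 5 below both at 5.29 RPKM. Its exons share 26.0% of their bases with a non-coding gene on the same strand.

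The share of each receptor was also compared within libraries. The size of a share or ratio between genes, here and below, depends on the lengths of the gene models behind the values. TNFRSF10D made up 28.7% and 30.1% of the summed RPKM of TNFRSF10A, TNFRSF10B and TNFRSF10D in shPLKO 1 and 2, and 18.5% and 14.6% in shNUDT21 1 and 5. TNFRSF10A was at 0.280 and 0.270 of TNFRSF10B in the controls and at 0.371 and 0.453 in the knockdown libraries. The sum of the signalling receptors TNFRSF10A and TNFRSF10B went from 106.0 and 108.5 RPKM to 150.6 and 158.9 RPKM. For the share and for the ratio, groups of 2 did not overlap, and the two-sided exact permutation p was 0.333, the smallest that 2 libraries against 2 can give. The same held for FAS relative to the sum of TNFRSF10A and TNFRSF10B, and with 5 such quantities compared the adjusted p was 0.555.

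**Figure D2:**
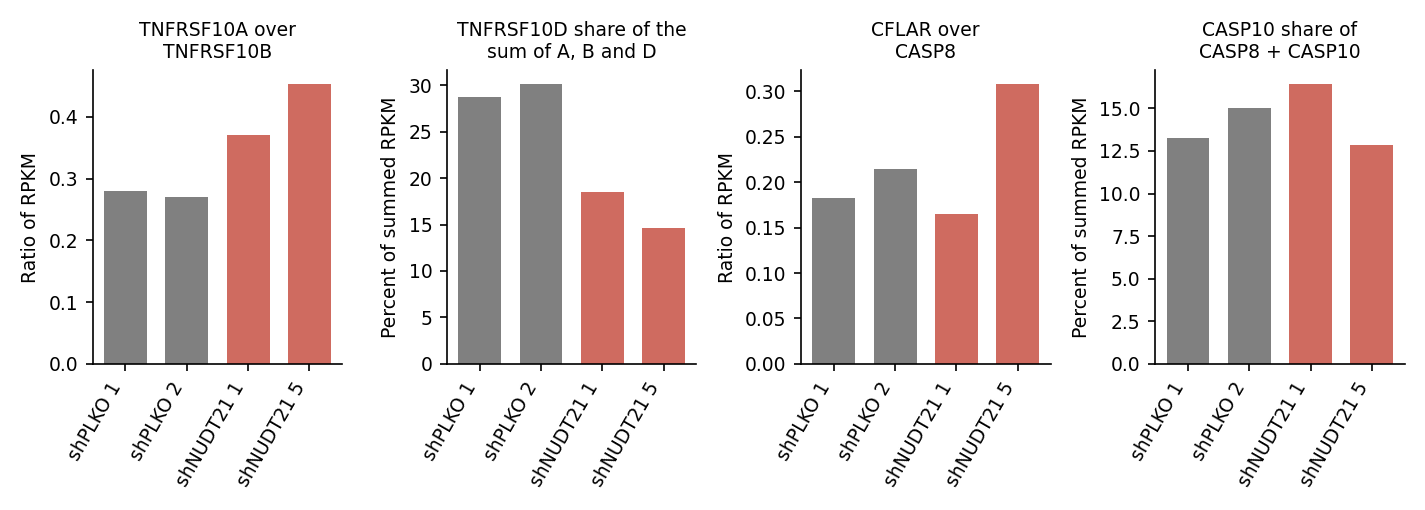
Relations between genes within each library, as ratios of RPKM or as a percent of summed RPKM, with grey bars for shPLKO and red bars for shNUDT21. TNFRSF10A relative to TNFRSF10B is higher and the TNFRSF10D share lower in both knockdown libraries, while CFLAR relative to CASP8 and the CASP10 share have knockdown bars on both sides of the controls.

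FAS, the receptor for FAS ligand, was the lowest of the 10 genes. It was at 0.355 and 0.436 RPKM in shPLKO 1 and 2 and at 1.007 and 0.904 RPKM in shNUDT21 1 and 5, from 103, 126, 290 and 258 reads. The counting intervals of the controls (up to 0.520 RPKM) and of the knockdown libraries (from 0.797 RPKM) did not meet. The ratio of the means was 2.41, the largest among the 10 genes, but the mean level kept FAS out of the main test. In a fit with no filter on low values it differed by 0.49 on the log2 scale, with an SE of 0.06 (limma adjusted p 0.0657). In that fit, 0% of 17606 genes were called (limma; 4762 at an unadjusted p under 0.05), and 29.2% had both knockdown values above both controls. A pseudocount of 1 understates the change of a gene at this level. Exons of FAS share 8.93% of their bases with ACTA2 on the opposite strand, and ACTA2 had 9.94 and 9.30 RPKM in shPLKO 1 and 2 and 4.81 and 2.53 RPKM with knockdown. Its part in the FAS values was not tested.

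FADD, the adaptor that links both kinds of receptor to the caspases, had 35.5 and 32.0 RPKM in shPLKO 1 and 2, and 26.5 and 19.7 RPKM were measured in shNUDT21 1 and 5. Both knockdown values were below both controls, and shNUDT21 5 was the lower. Its log2 fold change of -0.54 (SE 0.18) did not pass (limma adjusted p 0.12). Its 95% interval ran from -1.02 to -0.06. An annotated antisense gene covers 54.9% of the exon bases of FADD, and the use of strand is not given in the sources used here, so reads from the pair may have been counted together. After correction for GC content and gene model length the log2 fold change was -0.31 (limma adjusted p 0.267).

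The initiator caspases and their relative CFLAR lie side by side on chromosome 2, in the order CFLAR, CASP10, CASP8, with no other protein-coding gene between them in RefSeq. All 3 had both knockdown values above both controls, as did 32.8% of all genes tested, and only CASP8 passed the test. CASP8, the main initiator caspase of this pathway, was at 7.40 and 7.08 RPKM in shPLKO 1 and 2 against 13.8 and 12.2 RPKM in shNUDT21 1 and 5, or 7.24 ± 0.227 and 13.0 ± 1.14 RPKM (mean ± SD, n = 2 each). The distance between the groups was larger than the spread within either. On the log2 scale it was 0.76, with an SE of 0.13 (limma adjusted p 0.0494), from 790, 752, 1460 and 1277 reads.

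CASP10, a related initiator caspase, was expressed at a lower level: 1.13 and 1.25 RPKM in shPLKO 1 and 2, and 2.71 and 1.79 RPKM once NUDT21 was knocked down. The knockdown libraries differed from each other, with counting intervals of 2.48 to 2.94 RPKM and 1.61 to 1.99 RPKM. CASP10 did not pass, with a log2 fold change of 0.55 and an SE of 0.18 (limma adjusted p 0.108). At this low level the pseudocount matters: the log2 fold change was 0.84 with a pseudocount of 0.1, 0.88 with 0.01 and 0.89 with voom, and none of these passed. CASP10 stayed between 12.9% and 16.4% of the summed RPKM of CASP8 and CASP10 in all 4 libraries.

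CFLAR, the inhibitor, was at 1.35 and 1.52 RPKM in shPLKO 1 and 2, and shNUDT21 1 had 2.27 RPKM, while shNUDT21 5 had 3.75 RPKM. Here the order of the knockdown libraries was the reverse of that for both caspases. The ratio of means was 2.09. Its log2 fold change of 0.69 (SE 0.21), with a 95% interval from 0.14 to 1.25, did not pass (limma adjusted p 0.10). As for CASP10, the pseudocount matters at this level. The log2 fold change of CFLAR was 0.98 with a pseudocount of 0.1, 1.018 with 0.01 and 1.023 with voom, and none of these passed. Relative to CASP8, CFLAR was at 0.183 and 0.215 in the controls, 0.165 in shNUDT21 1 and 0.308 in shNUDT21 5. The groups overlapped for this ratio (exact permutation p 1.0, two-sided), and the direction of the difference depended on the knockdown library: it was -0.0339 with shNUDT21 1 alone and 0.109 with shNUDT21 5 alone. The gene model behind the CFLAR value spans 18489 bases, and the values do not separate the long and short forms of FLIP. CFLAR exons share 6.60% of their bases with a processed pseudogene and 3.45% with an antisense gene, both on the opposite strand.

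Promoter windows of 250 bases before and 50 bases from the start site were read from RefSeq (GRCh38.p14) for FAS, FADD, CASP8, CFLAR, RIPK1 and BID, 19 windows in all, several per gene and some overlapping. TNFRSF10A, TNFRSF10B, TNFRSF10D and CASP10 were not searched. The windows were searched on both strands for the letters GAAANNGAAA, a form of the element bound by IRF1 and related interferon-regulated transcription factors. Of 35116 windows of this length, 3.57% held it. Among these 6 genes it was in 1 of 3 CASP8 windows and in 2 of 3 RIPK1 windows, which overlap and share a single match, and in no window of FAS, FADD, CFLAR or BID. The windows of CASP8, which rose, and RIPK1, which did not pass the test, are shown for comparison, with the match in capitals as its reverse complement. The match in CASP8 starts 3 bases before the start site and runs across it, and that in RIPK1 67 bases before it. The CASP8 window is chr2:201233213-201233512 and the RIPK1 window chr6:3068128-3068427, both on the plus strand.
CASP8: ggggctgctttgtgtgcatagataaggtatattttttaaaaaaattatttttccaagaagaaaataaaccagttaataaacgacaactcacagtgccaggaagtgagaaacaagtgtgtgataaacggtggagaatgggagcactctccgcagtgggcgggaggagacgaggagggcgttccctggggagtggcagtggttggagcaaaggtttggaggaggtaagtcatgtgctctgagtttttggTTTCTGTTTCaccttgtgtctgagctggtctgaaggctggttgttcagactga
RIPK1: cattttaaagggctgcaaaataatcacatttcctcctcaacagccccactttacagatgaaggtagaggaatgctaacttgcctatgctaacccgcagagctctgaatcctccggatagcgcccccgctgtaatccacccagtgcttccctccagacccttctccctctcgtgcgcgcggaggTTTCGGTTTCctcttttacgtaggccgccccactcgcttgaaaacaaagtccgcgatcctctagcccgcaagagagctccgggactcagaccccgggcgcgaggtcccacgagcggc

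The same letters thus stood near a start of a gene that rose and of a gene with no called change. Of the other motifs searched on both strands, GGGCGG, bound by SP1, was in 14 of the 19 windows (45% of all windows) and TGANTCA, bound by AP-1, in 5 (7.71%). TATAAA was in 2 (11.5%), and TGATGNAA, a form of the element bound by ATF4 with CHOP, was in 0 (3.62%). None of these overlapped the printed matches. A match describes letters only and shows no binding.

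RIPK1, the kinase, had 7.27 and 7.17 RPKM in shPLKO 1 and 2, and 6.67 and 6.12 RPKM in shNUDT21 1 and 5. The knockdown values lay slightly below the controls. RIPK1 did not pass, with a log2 fold change of -0.15 (SE 0.12) and a 95% interval from -0.48 to 0.17 (limma adjusted p 0.422). BID, which carries the signal from caspase-8 to the mitochondria, had 14.9 and 12.7 RPKM in shPLKO 1 and 2, then 18.4 RPKM in shNUDT21 1 but 10.7 RPKM in shNUDT21 5. The knockdown libraries stood on opposite sides of both controls, with counting intervals of 17.5 to 19.4 RPKM and 9.98 to 11.4 RPKM. BID did not pass (limma adjusted p 0.953), and the 95% interval of its log2 fold change of 0.03 (SE 0.28), from -0.69 to 0.75, holds changes of either sign.

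**Figure D3:**
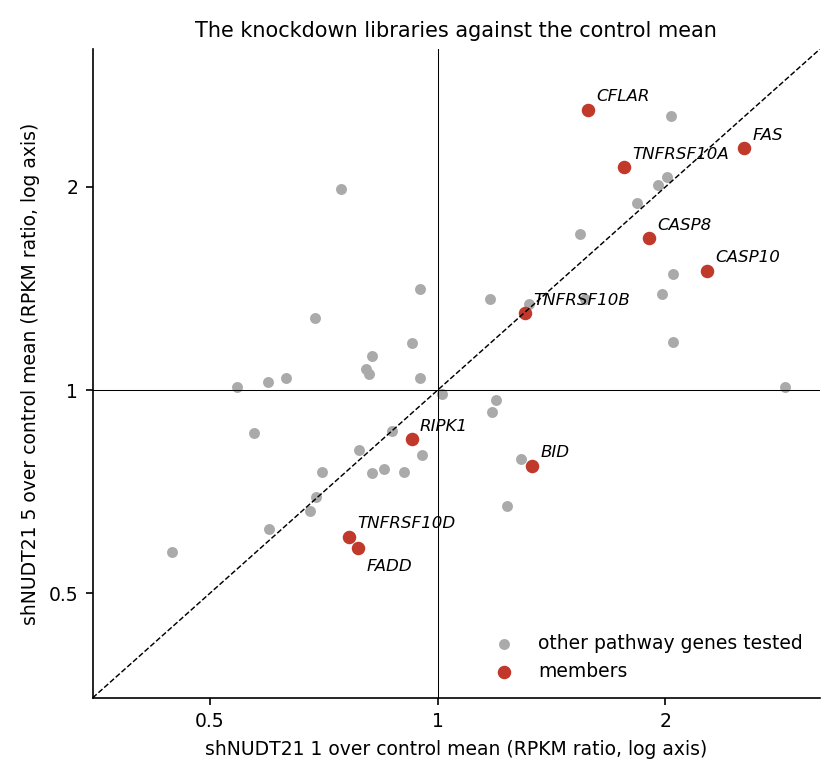
RPKM of shNUDT21 1 (horizontal) and shNUDT21 5 (vertical) over the control mean, on log axes, for the 10 genes (red) and the 40 other pathway genes tested (grey); the dashed line marks equal ratios. TNFRSF10B lies on the line at 1.31 and 1.30, CFLAR is above it at 1.58 and 2.60, CASP10 below it at 2.27 and 1.504, and BID is far below it at 1.33 and 0.773.

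How far the knockdown libraries differed from each other varied among the genes. The ratio of shNUDT21 5 to shNUDT21 1 was 0.996 for TNFRSF10B, 0.917 for RIPK1, 0.898 for FAS and 0.883 for CASP8. It was 1.22 for TNFRSF10A, 0.794 for TNFRSF10D and 0.745 for FADD, so these 3 stood further from the controls in shNUDT21 5, as CFLAR and RIPK1 did, while CASP8, CASP10, FAS and, by 1.31 against 1.30, TNFRSF10B stood further from them in shNUDT21 1. The widest gaps were those of CFLAR at 1.65, CASP10 at 0.662 and BID at 0.580. The ratio of shPLKO 2 to shPLKO 1 stayed between 0.851, for BID, and 1.23, for FAS.

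In the controls, the order of levels in RPKM was TNFRSF10B, TNFRSF10D, FADD, TNFRSF10A, BID, CASP8, RIPK1, CFLAR, CASP10 and FAS. CASP8 at a mean of 7.24 RPKM and RIPK1 at 7.22 RPKM overlapped, and every other pair of neighbours was separated in both control libraries. TNFRSF10B was above 96.2% of all genes and FAS above 38.9%. In the knockdown libraries TNFRSF10A had rank 2 in place of rank 4, above TNFRSF10D and FADD. Levels between genes depend on the gene models behind the values. The length recovered for FAS was 9525 bases, against 4253 exon bases in GENCODE v29, while for CASP8 it was 3505 against 7243 and for TNFRSF10A 1750 against 2951. Per kilobase of GENCODE exons, a length chosen after the data were seen, FAS was still the lowest in the controls, at 0.886. RIPK1 stood above BID and CASP8 there. In the knockdown libraries TNFRSF10A then had rank 3, overlapping both TNFRSF10D and FADD, while FAS and CASP10 overlapped. Ratios of RPKM between groups do not depend on these lengths, but the level filter and the log2 fold changes with a pseudocount do. Per kilobase of GENCODE exons FAS had 0.795 and 0.978 in shPLKO 1 and 2, and 2.255 and 2.025 in shNUDT21 1 and 5. Its mean would then reach the filter, and it was not tested at that length.

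Over the 4 libraries, genes outside the set with a profile close to that of TNFRSF10A, by Euclidean distance of log2(RPKM + 1) from the control mean, were IL18, the nearest, at 0.0053 and GRK2 at 0.0757. IL18, which encodes a cytokine, went from 51.7 and 51.6 RPKM to 90.3 and 109.1 RPKM, with the same order of libraries. The genes nearest to CASP8 were TBC1D30 at 0.0279, CHMP4A at 0.0300 and ZNF480 at 0.0320. With 4 libraries, such closeness is a description.

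Because NUDT21 is part of a factor that binds UGUA upstream of cleavage sites, the letters TGTA were counted in the longest annotated 3' UTR of each gene (GENCODE v29). The values measure whole genes, so the place of cleavage was not measured. Over 10754 tested genes with such a UTR, 90.2% held the letters and the median was 4.89 per kilobase, with quartiles at 2.70 and 7.16. The 10 genes ranged from 0 to 9.74 per kilobase, with a median of 3.38. CASP8 had 0 in 1117 bases, TNFRSF10A 4 in 1242 bases, FADD 1 in 917 bases and FAS 13 in 1335 bases. CFLAR has the longest 3' UTR of the 10, 12714 bases with 58 matches.

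A list of 45 other genes of the pathway was examined beside the 10, and 40 of them reached the level filter. In this list 3 rose, 1 fell and 36 were not called, against 2.61% and 3.21% of all genes, and the median log2 fold change was -0.03. The genes that rose were XIAP, IRF1 and NFKB1. XIAP, which inhibits the executioner caspases and caspase-9, went from 4.32 and 4.85 RPKM to 8.98 and 9.24 RPKM (log2 fold change 0.86, limma adjusted p 0.0431). IRF1 went from 5.00 and 5.25 RPKM to 9.42 and 9.70 RPKM, and NFKB1, which encodes the p105 and p50 proteins of NF-kappa-B, from 4.24 and 4.29 RPKM to 8.58 and 8.84 RPKM (limma adjusted p 0.0444 and 0.0416). Exons of IRF1 share 22.0% of their bases with C5orf56 on the opposite strand. In all 3 the knockdown libraries were within 1.03-fold of each other.

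The gene that fell was HTRA2, a mitochondrial protease that opposes XIAP once released. It had 24.4 and 25.4 RPKM in shPLKO 1 and 2, and 11.1 and 14.3 RPKM in shNUDT21 1 and 5 (log2 fold change -0.93, limma adjusted p 0.0499). Its exons share 20.8% of their bases with LOXL3 and 16.1% with AUP1 on the opposite strand, and its call was lost with a pseudocount of 0.1 (adjusted p 0.0511). By role, 2 of 8 transcription factors known to act on receptor genes were called. So were 2 of 11 genes of the mitochondrial arm and execution, against 5.82% of all genes tested. Among adaptors and regulators it was 0 of 16 (limma; 3 at an unadjusted p under 0.05). Among other receptors and ligands it was 0 of 4 (limma; 1 at an unadjusted p under 0.05). Of all 11124 genes tested, 3773 had an unadjusted limma p under 0.05. The 1 necroptosis gene tested, MLKL, was not called. The list was chosen with earlier results of these data known.

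Among the genes that were not called, those with the lowest p were MLKL, TRADD, DAXX, TNFRSF25, ATF4 and APAF1. MLKL, the membrane effector of necroptosis, had 1.1 and 1.01 RPKM in shPLKO 1 and 2, against 2.15 and 2.70 RPKM in the knockdown libraries (limma adjusted p 0.0523). TRADD, an adaptor of TNF receptor 1 signalling, had 17.5 and 15.5 RPKM against 9.88 and 10.3 RPKM (limma adjusted p 0.0552). The ratio of means was 0.692 for DAXX, a protein that binds the FAS death domain, and 0.671 for TNFRSF25, the receptor DR3. It was 1.47 for ATF4, a stress-induced transcription factor, and 1.62 for APAF1, the scaffold of the apoptosome. Their limma adjusted p-values ran from 0.0670 to 0.0876.

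**Figure D4:**
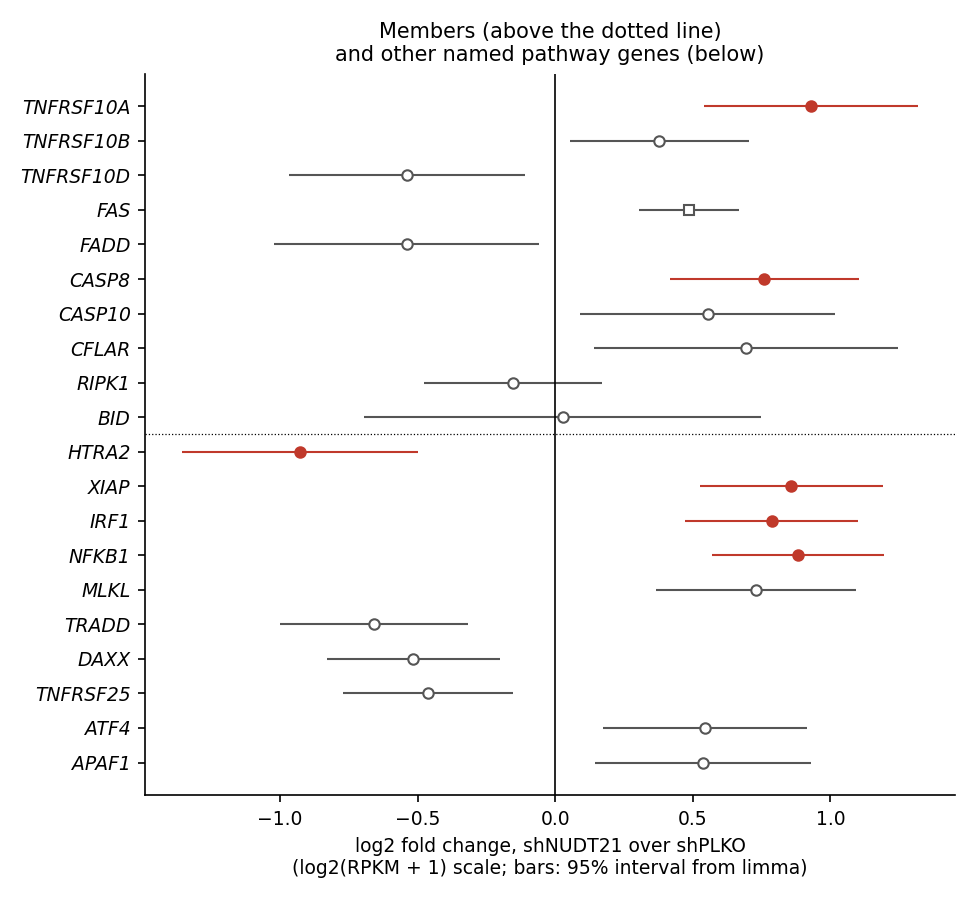
Log2 fold change of shNUDT21 over shPLKO on the log2(RPKM + 1) scale, with 95% intervals from limma, for the 10 genes (above the dotted line) and 10 other genes of the pathway (below). Filled red symbols passed the test, open symbols did not, and the square for FAS comes from the fit with no filter. TNFRSF10A and CASP8 are filled above the line, and HTRA2, XIAP, IRF1 and NFKB1 below it.

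Neither ligand of these receptors was expressed at a level that could be compared. TNFSF10, which encodes TRAIL, had 6, 5, 14 and 3 reads in shPLKO 1, shPLKO 2, shNUDT21 1 and shNUDT21 5. FASLG, which encodes FAS ligand, had 2 reads in shPLKO 1 and 0 in the other libraries.

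The calls of TNFRSF10A and CASP8 were lost in some settings and without either control. After correction for GC content and gene model length, TNFRSF10A had a larger log2 fold change of 1.09 (limma adjusted p 0.0576). CASP8 had a smaller one of 0.58 (limma adjusted p 0.0722). With no filter on low values the log2 fold changes were as in the main test, and the limma adjusted p-values were 0.0675 and 0.0738. Without shPLKO 1 they were 0.494 and 0.522, and without shPLKO 2 0.425 and 0.469, with log2 fold changes between 0.73 and 0.93. XIAP was not called after the GC content correction, which gave a log2 fold change of 0.50 in place of 0.86 (limma adjusted p 0.0725), and XIAP, IRF1, NFKB1 and HTRA2 were not called without either control or with no filter.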

How the data were processed

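RNA sequencing used a SMARTer mRNA kit, per the labels' protocols. Bowtie 0.12.2 and hg18 are listed, with no role, per the submitters' processing notes. Of the counting tool, the annotation and the use of strand, none is given in the sources used here. Values as deposited, 1 library per file, were taken as RPKM made by the authors, a unit inferred from the values since the headers give none. Of 20030 rows, 27 held a date in place of a symbol and were left out.

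Reads were recovered from the steps of the values: 316 transcript lengths gave the same library total, against 15 for the next. The search fits whole reads to each gene by construction, and 98.7% to 98.9% of each total fell on genes. Counting intervals are 95% Poisson intervals and cover counting error only, since reads carry no molecular identifiers. Limma 3.58.1 (R 4.3.3) with an intensity trend was fitted across all genes whose mean reached 1 RPKM, on log2(RPKM + 1), two-sided, with 2 residual and 2.71 prior degrees of freedom, and was tested on simulated data. Permutation tests used scipy 1.17.1. GENCODE 29 gave exon overlaps (at least 50 bases), UTRs and GC content, on another build than the notes name. The named genes were the 10 members, NUDT21, the called genes of the pathway list with the 6 of lowest p among the rest, and the 3 nearest profiles of the 2 members with the lowest p. A gene that this rule names is not reported here. TNFRSF10C, ACTA2, the ligands and the genes of the closing observations were named in addition, after their values were seen. Alternatives were other pseudocounts, filters, scalings, no trend, a GC content and length correction, voom on recovered reads, and each library left out. The members and lists were chosen with earlier results of these data known.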

Additional observations from a re-analysis of the deposited data

How the results depend on the processing

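No paired analysis was possible because the groups share only the number 1 among their replicate numbers. Every one of the 9 genes tested kept its direction under the 9 other settings and 4 left-out libraries, apart from BID, at -0.007 with each library scaled to an equal median, -0.081 without shPLKO 2 and -0.339 without shNUDT21 1, with 0.394 without shNUDT21 5 as the other end of its range. With no filter, 0 members, 0 of the pathway list and 0 of all genes were called (limma; 4762 at an unadjusted p under 0.05), and the median of the 10 members was 0.432. After correction for GC content and gene model length, 0 members were called, 0 pathway genes fell, and 150 genes rose and 135 fell. With a filter at 5 RPKM, 233 genes fell and the member median was 0.028, without CASP10 and CFLAR, which had no value there. HTRA2 was not called at that filter, at pseudocounts of 0.1 and 0.01 or without the intensity trend, leaving 0 pathway genes that fell. Scaling to an equal median gave a member median of 0.341. Leaving out 1 library at a time, members called ranged from 0 to 6 higher and 0 to 3 lower, pathway genes from 0 to 15 higher and 0 to 16 lower, all genes from 0 to 3766 higher and 0 to 4005 lower, and the member median from 0.350 to 0.40. The high counts came without a knockdown library, where the remaining one is assumed to vary like the controls, and the low counts without a control. FAS, at 103 to 290 reads, is where depth limits precision most.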

Other observations

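Some genes of the pathway differed more between the knockdown libraries than between the groups; they were picked after their values were seen. BIRC3, a ubiquitin ligase of receptor complexes, had 270 reads in shNUDT21 1 and 712 in shNUDT21 5, against 310 and 417 in the controls. RBCK1, a subunit of the linear ubiquitin ligase complex, had 6757 and 3854 reads in shNUDT21 1 and 5, against 3441 and 3183. PEA15, which binds FADD and caspase-8, had 3979 and 7334 reads, against 7456 and 7265.

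MLKL was measured without its usual partner: RIPK3, the kinase that activates MLKL, had 1, 1, 2 and 0 reads in the 4 libraries. TNFRSF11B, which encodes the soluble TRAIL receptor osteoprotegerin, had at most 5 reads in any of them.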
